A study of Mus musculus with 24 samples.

Results

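A set of 10 genes that hold back the cell cycle was followed through differentiation and dexamethasone treatment of C2C12 cells, an established clonal mouse myoblast line. They were chosen by symbol as the 7 genes of the cyclin-dependent kinase (CDK) inhibitors, Cdkn1a, Cdkn1b, Cdkn1c, Cdkn2a, Cdkn2b, Cdkn2c and Cdkn2d, and the 3 genes of the retinoblastoma family, Rb1, Rbl1 and Rbl2. They are 10 of the 48544 genes in the deposited tables, and 8 of them passed the filter on low values. Messenger RNA was sequenced in 24 libraries, 4 in each of 6 groups, all of wild-type genotype. Day 7 myotubes had spent 7 days in 2% serum, and day 0 myoblasts were harvested near confluence in 10% serum. Myotubes given 100 µM dexamethasone, a synthetic glucocorticoid, for 24 h or 72 h from day 7 were set against myotubes kept for the same time in vehicle medium with 1% ethanol. Treated and vehicle cells were therefore collected on day 8 or day 10, all in 2% serum. Ethanol is named in the labels only for vehicle medium. Replicates are not stated to be separate cultures, so p-values measure the spread between these libraries, which may be technical. The change of serum is part of the step between day 0 and day 7 and cannot be told apart from differentiation. Several comparisons share libraries, such as vehicle 24 h, which serves as control for dexamethasone 24 h and as the earlier group for vehicle 72 h.

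The CDK inhibitors fall into 2 families. Cdkn1a (p21), Cdkn1b (p27) and Cdkn1c (p57) bind cyclin-CDK complexes of several kinds. The CDK inhibitor proteins made from the Cdkn2 genes instead bind Cdk4 and Cdk6 and keep them from the D cyclins. While these kinases are inactive, the retinoblastoma proteins remain underphosphorylated and hold E2F transcription factors, so that genes of DNA replication are not switched on. Myoblasts that fuse into myotubes leave the cell cycle, with p21 and Rb1 known as central to that exit. Rbl1 (p107) is known from cycling cells and is itself a target of E2F factors, while Rbl2 (p130) is the member that prevails in resting cells, where it joins E2f4 and the MuvB proteins in the DREAM complex.

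Levels are given in TPM (transcript abundance scaled by transcript length to the same total in each library) as deposited, for replicates 1 to 4 in that order. Folds are ratios of mean TPM. Log2 differences, standard errors (SE) and adjusted p-values come from limma on the deposited log2-scale table, whose differences are smaller than those of the TPM. A gene was called higher or lower below an adjusted p of 0.05 over 16257 genes. The group means of Mki67 and Fkbp5 followed the labels. Mki67, a marker of dividing cells, averaged 3.43 ± 2.42 TPM in day 7 myotubes and 44.6 ± 5.60 TPM in day 0 myoblasts (SD, n = 4 each). Fkbp5, a glucocorticoid receptor target, averaged 175 ± 34.6 TPM after 24 h of dexamethasone and 10.2 ± 1.96 TPM in vehicle. At 72 h Fkbp5 averaged 149 ± 32.4 TPM with dexamethasone and 15.7 ± 9.48 TPM in vehicle, where replicate 1 was highest at 29.2 TPM. All 5 myotube markers rose in day 7 myotubes. Depth cannot be read from these tables, and 12428 to 13030 genes reached 1 TPM in a library. In bulk RNA, fewer cells of a type and less RNA per cell cannot be told apart.

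Replicate numbers went with the order of some genes within groups. Replicate 1 was the lowest of its group for Cdkn1a in 5 of 5 myotube groups, for Cdkn1c, Cdkn2c and Rbl2 in 4 of 5, and for Myog in 4 of 5, whereas the muscle creatine kinase gene Ckm was highest in replicate 1 in 5 of 5. Replicate 2 was the lowest for Ckm in 5 of 5 and the highest for Myog and for Cdkn1c in 4 of 5. The 72 h replicate 1 libraries also held transcripts typical of each other. A set of 9 genes lay below 0.5 TPM in vehicle 72 h replicates 2 to 4 and at 5 TPM or more in every treated library at 72 h. Their values in vehicle 72 h replicate 1 had a median of 13.0% relative to those in the treated replicate 1 library. A set of 5 genes chosen the opposite way had a median of 15.8% in the treated replicate 1 library, relative to that of vehicle. At 24 h, 13 genes chosen as for the vehicle library had a median of 0.122% in vehicle replicate 1 relative to the treated replicate 1 library. What this did to the members was not tested, and the calls of Cdkn2c, Rb1 and Rbl1 at 72 h are given with and without these libraries.

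In day 7 myotubes compared with day 0 myoblasts, Cdkn1a rose 12.4-fold and Rbl1 was 4.88-fold lower, and Rb1, Cdkn1c and Rbl2 rose while Cdkn2d and Cdkn1b fell. Of the 8 tested members, 7 were called, 4 higher and 3 lower. Over all genes tested, 60.3% were called in this comparison, 30.5% higher and 29.8% lower. After 24 h of dexamethasone, Cdkn1b, Cdkn1c, Rb1 and Rbl2 rose and Cdkn2c fell. That made 5 of 8 called, 4 higher and 1 lower, against 25.4% of all genes, 13.2% higher and 12.2% lower. On the TPM scale 64.8% of all calls at 24 h were higher, against 51.8% in the log2 table. After 72 h, Rbl1 and Rb1 rose and Cdkn2c fell, which made 3 of 8, against 30.3% of all genes, 15.2% in each direction. The response differed between 72 h and 24 h for 4 of 8 members, with Rbl1 higher and Cdkn1b, Cdkn1c and Rbl2 lower, against 11.3% of all genes, 5.56% higher and 5.77% lower. By TPM 36.2% of all calls for this difference were higher, against 49.1% in the log2 table. The median log2 difference of the 8 members was 0.13 in differentiation, 0.15 at 24 h and 0.0034 at 72 h, beside medians of 0.015, −0.0080 and 0.0056 over all genes tested.

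**Figure D1:**
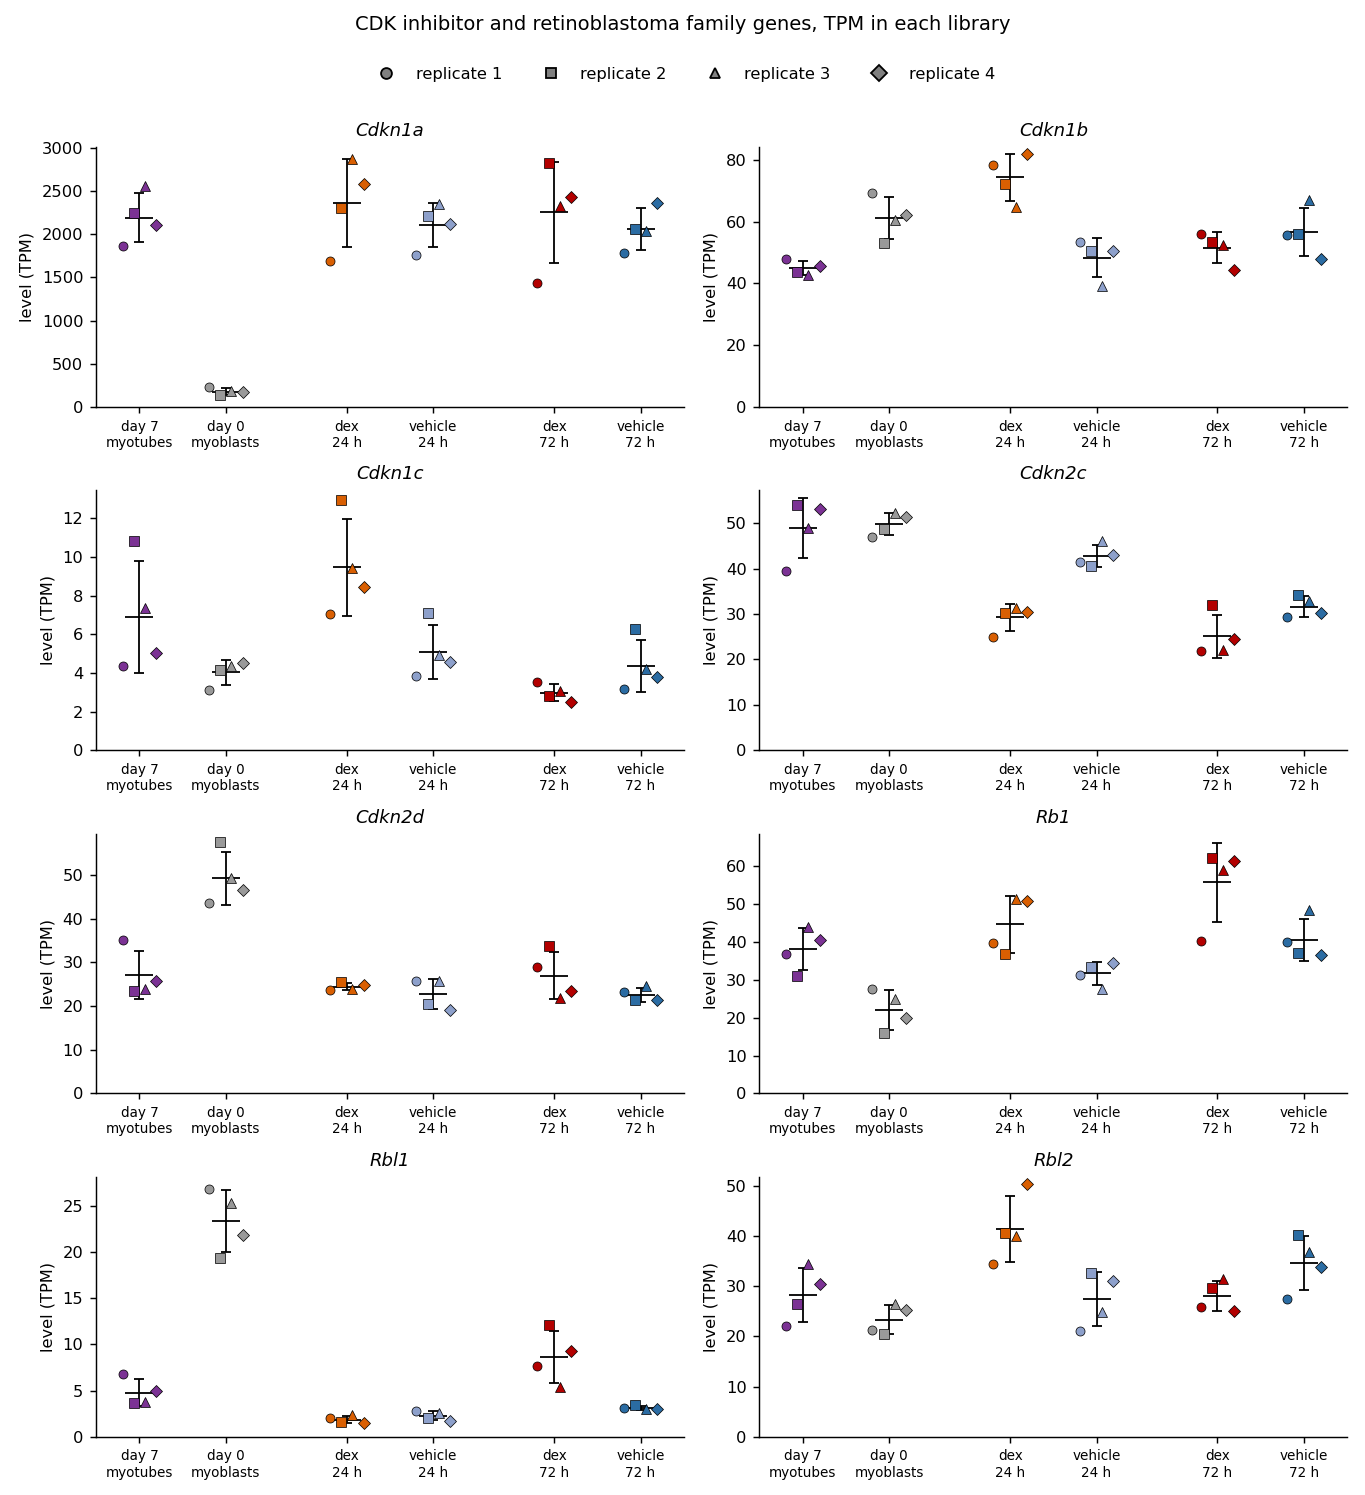
TPM (y axis, linear from 0) of the 8 members above 0, with 1 point per library, its shape giving the replicate number, and bars for mean ± SD (n = 4). Dex stands for dexamethasone. Cdkn1a lies between 1435 and 2872 TPM in all 20 myotube libraries and at 225 TPM or less in the 4 myoblast libraries. Rbl1 is highest in myoblasts, and among myotube groups its mean is highest after 72 h of dexamethasone.

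**Figure D2:**
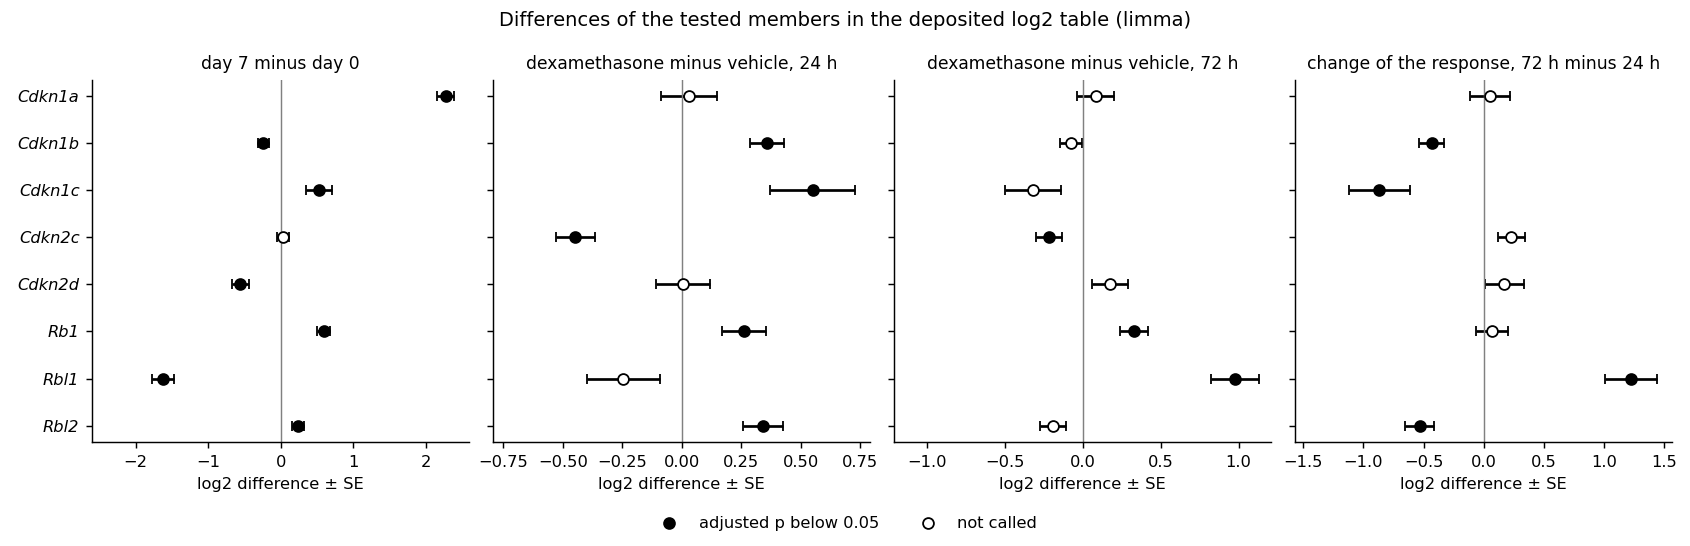
Log2 difference ± SE in the deposited log2 table (x axis, own scale in each panel) for the 8 tested members in 4 comparisons. Filled points have an adjusted p below 0.05. Rbl1 is at −1.63 in differentiation and 0.98 after 72 h of dexamethasone, and among these 4 panels Cdkn1a is called in differentiation only.

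Cdkn1a was the most abundant member in every group. It had 1868, 2244, 2553 and 2104 TPM in day 7 myotubes, against 225, 135, 178 and 169.9 TPM in day 0 myoblasts. The groups lay far apart, with every day 7 library at more than 8 times the highest myoblast library. The means were 2192 ± 286 TPM in day 7 myotubes and 177 ± 36.7 TPM in day 0 myoblasts (SD, n = 4 each), with a log2 difference of 2.27 (SE 0.12, adjusted p = 5.16e-13). By mean TPM it ranked 44 among all genes in day 7 myotubes and 795 in day 0 myoblasts.

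Dexamethasone left no called change in Cdkn1a. It had 1685, 2305, 2872 and 2584 TPM after 24 h of dexamethasone, against 1755, 2207, 2352 and 2115 TPM in vehicle 24 h. At 72 h it had 1435, 2827, 2322 and 2424 TPM with dexamethasone, against 1776, 2059, 2042 and 2365 TPM in vehicle. At both times the groups overlapped, and dexamethasone replicate 1 was the lowest library of its pair of groups. The log2 difference was 0.031 (SE 0.12, adjusted p = 0.875) at 24 h and 0.082 (SE 0.12, adjusted p = 0.657) at 72 h, which does not show that the levels are equal. In the order of group means, dexamethasone 24 h came first, then dexamethasone 72 h, day 7, vehicle 24 h and vehicle 72 h, each overlapping the next, and day 0 stood apart.

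The summed TPM of the CDK inhibitors was 2320.1 ± 285 in day 7 myotubes and 341 ± 36.5 in day 0 myoblasts. Cdkn1a made up 94.4 ± 0.736% of that sum in day 7 myotubes and 51.4 ± 5.17% in day 0 myoblasts. Its share was 94.3 ± 1.27% and 95.2 ± 1.58% after 24 h and 72 h of dexamethasone, against 94.6 ± 0.831% and 94.6 ± 0.816% in the vehicle groups of 24 h and 72 h. In myoblasts Cdkn1b, Cdkn2c and Cdkn2d each contributed between 14.7% and 17.9%, so the pool was mixed there and nearly all Cdkn1a in myotubes.

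Cdkn1b fell in differentiation and rose with 24 h of dexamethasone. It had 47.8, 43.7, 42.8 and 45.7 TPM in day 7 myotubes, against 69.3, 52.9, 60.4 and 62.2 TPM in day 0 myoblasts. The groups did not overlap (log2 difference −0.24, SE 0.073, adjusted p = 0.0068). With dexamethasone for 24 h the values were 78.3, 72.2, 64.8 and 82.0 TPM, against 53.3, 50.6, 39.1 and 50.3 TPM in vehicle. All 4 treated libraries lay above all 4 vehicle libraries, a 1.54-fold rise (log2 difference 0.36, SE 0.073, adjusted p = 0.00104). At 72 h it had 56.1, 53.4, 52.4 and 44.3 TPM with dexamethasone, against 55.7, 56.1, 66.9 and 47.8 TPM in vehicle. Those groups overlapped (adjusted p = 0.478), and the response was lower at 72 h than at 24 h by a called margin (log2 difference of the responses −0.43, SE 0.10, adjusted p = 0.00801). All 17 alternatives kept the 24 h call and all 26 kept the difference between times. In the order of its 6 group means, led by dexamethasone 24 h with day 7 last, each group overlapped the next.

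Cdkn1c was the least abundant of the 5 tested inhibitors. It had 4.38, 10.8, 7.34 and 5.03 TPM in day 7 myotubes, against 3.11, 4.14, 4.33 and 4.53 TPM in day 0 myoblasts. The ranges overlapped, with replicate 2 of day 7 far above the rest, and the rise was 1.71-fold (log2 difference 0.53, SE 0.18, adjusted p = 0.0135). The call was lost without day 7 replicate 2 or day 0 replicate 1 (adjusted p = 0.0574 to 0.085) and after quantile normalisation, and over all 17 alternatives the adjusted p was 0.00181 to 0.085.

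Treated for 24 h, cells had Cdkn1c at 7.05, 12.9, 9.44 and 8.43 TPM, against 3.82, 7.09, 4.92 and 4.55 TPM in vehicle. The lowest treated library lay just under the highest vehicle library, so the groups overlapped by 1 library each. The rise was 1.86-fold (log2 difference 0.55, SE 0.18, adjusted p = 0.0275), and leaving out dexamethasone replicate 2 or 3 or vehicle replicate 1, 3 or 4 ended the call (adjusted p = 0.0507 to 0.1), as did testing with no filter (adjusted p = 0.00238 to 0.1 over all 17 alternatives). At 72 h it had 3.52, 2.79, 3.07 and 2.51 TPM with dexamethasone, against 3.17, 6.28, 4.18 and 3.81 TPM in vehicle. These overlapped (adjusted p = 0.193), and of 18 alternatives only TPM with replicate blocks called it lower (adjusted p = 0.0498 to 0.46 over all 18). The response at 72 h was lower than at 24 h (log2 difference −0.87, SE 0.25, adjusted p = 0.0277). That call was lost without dexamethasone 24 h replicate 2, dexamethasone 72 h replicate 2 or 4, vehicle 24 h replicate 1 or vehicle 72 h replicate 2 (adjusted p = 0.0574 to 0.0686), and with no filter (adjusted p = 0.00326 to 0.0686 over all 26 alternatives). In the order of its group means, from dexamethasone 24 h down to dexamethasone 72 h, every neighbour overlapped the next.

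Of the inhibitors of Cdk4 and Cdk6, Cdkn2a and Cdkn2b were listed at 0 TPM in all 24 libraries, as were 18188 of the 48544 genes, and could not be tested. In the RefSeq gene order (GRCm38.p6) they lie side by side. The neighbouring protein-coding gene before Cdkn2a, Mtap, an enzyme of methionine salvage, had 31.6 to 116.5 TPM and was above 0 in 24 of 24 libraries. Dmrta1, the next protein-coding gene after Cdkn2b, reached at most 0.0101 TPM, Ifne before Mtap at most 0.118 TPM, and Elavl2 at most 0.0671 TPM.

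Cdkn2c (p18) was not called in differentiation and fell with dexamethasone. It had 39.6, 54.0, 49.1 and 53.2 TPM in day 7 myotubes, against 47.0, 48.8, 52.3 and 51.5 TPM in day 0 myoblasts, and the ranges overlapped (adjusted p = 0.736). After 24 h of dexamethasone it had 25.0, 30.3, 31.4 and 30.6 TPM, against 41.6, 40.6, 46.2 and 43.0 TPM in vehicle. All 4 treated libraries lay below all 4 vehicle libraries (log2 difference −0.45, SE 0.081, adjusted p = 3.74e-04). The vehicle mean was 1.46 times the treated mean, and all 17 alternatives kept the call.

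At 72 h Cdkn2c had 21.8, 32.0, 22.0 and 24.5 TPM with dexamethasone, against 29.3, 34.2, 32.9 and 30.3 TPM in vehicle. Here 3 treated libraries lay below the vehicle range and replicate 2 inside it. The call at 72 h was narrow (log2 difference −0.22, SE 0.081, adjusted p = 0.0462) and was lost when any library other than dexamethasone replicate 2 was left out (adjusted p = 0.0649 to 0.159). It was also lost without both 72 h replicate 1 libraries, with no filter, after quantile normalisation, and with the compared groups alone (adjusted p = 0.00791 to 0.159 over all 18 alternatives). The 2 responses to dexamethasone did not differ by a called amount (log2 difference 0.23, adjusted p = 0.213).

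Cdkn2c also fell with time in vehicle, with a log2 difference of −0.39 between vehicle 72 h and vehicle 24 h (SE 0.081, adjusted p = 0.0257). The 2 vehicle groups did not overlap. It was the 1 member of 8 called in that comparison, against 4.36% of all genes, 2.67% higher and 1.69% lower. By TPM 81.1% of all calls in that comparison were higher, against 61.2% in the log2 table. The call was lost without vehicle 24 h replicate 1 or 3 or vehicle 72 h replicate 1, 2 or 3 (adjusted p = 0.0519 to 0.126) and with the compared groups alone (adjusted p = 0.0133 to 0.129 over all 18 alternatives).

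Cdkn2d (p19) was called in differentiation and not with dexamethasone. It had 35.2, 23.4, 24.0 and 25.6 TPM in day 7 myotubes, against 43.5, 57.5, 49.2 and 46.6 TPM in day 0 myoblasts. The groups did not overlap, although day 7 replicate 1 stood above its group, and the fall had a log2 difference of −0.56 (SE 0.11, adjusted p = 2.21e-04). At 24 h it had 23.7, 25.5, 23.8 and 24.8 TPM with dexamethasone, against 25.6, 20.6, 25.8 and 19.1 TPM in vehicle. At 72 h the values were 28.9, 33.6, 21.8 and 23.4 TPM with dexamethasone, against 23.3, 21.3, 24.5 and 21.3 TPM in vehicle. Both pairs overlapped (adjusted p = 0.98 and 0.27).

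The ratio of Cdkn2c to Cdkn2d TPM was 1.89 ± 0.522 in day 7 myotubes and 1.02 ± 0.118 in day 0 myoblasts. It was 1.20 ± 0.110 after 24 h of dexamethasone, against 1.91 ± 0.267 in vehicle, and 0.941 ± 0.131 after 72 h, against 1.41 ± 0.148 in vehicle. In both dexamethasone pairs the ranges of the ratio did not overlap. Among the group means of Cdkn2c only vehicle 24 h and vehicle 72 h were neighbours that stood apart, and among those of Cdkn2d only day 0 and day 7.

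Rb1, the founding member of the retinoblastoma family, rose in differentiation and with dexamethasone. It had 36.8, 30.9, 43.9 and 40.5 TPM in day 7 myotubes, against 27.7, 15.9, 24.9 and 20.0 TPM in day 0 myoblasts. The groups did not overlap, and the rise was 1.72-fold (log2 difference 0.59, SE 0.093, adjusted p = 9.54e-06). After 24 h of dexamethasone it had 39.7, 36.7, 51.5 and 50.7 TPM, against 31.4, 33.3, 27.7 and 34.4 TPM in vehicle. All treated libraries lay above all vehicle libraries, a 1.41-fold rise (log2 difference 0.26, SE 0.093, adjusted p = 0.0417). The 24 h call was lost without dexamethasone replicate 3 or 4 or vehicle replicate 1, 2 or 3 (adjusted p = 0.0538 to 0.127), with no filter and after quantile normalisation (adjusted p = 0.0213 to 0.127 over all 17 alternatives).

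At 72 h Rb1 had 40.2, 62.1, 59.1 and 61.4 TPM with dexamethasone, against 39.9, 37.2, 48.4 and 36.5 TPM in vehicle. Treated replicates 2 to 4 lay above every vehicle library, whereas treated replicate 1 lay inside the vehicle range. The rise was 1.38-fold (log2 difference 0.33, SE 0.093, adjusted p = 0.00953), and 1.50-fold without both replicate 1 libraries. The call was lost on the TPM scale alone, with an adjusted p of 0.0557 at a pseudocount of 0.1 (adjusted p = 8.87e-04 to 0.0557 over all 18 alternatives). The responses at 72 h and 24 h did not differ by a called amount (log2 difference 0.067, adjusted p = 0.795). Of neighbouring group means, only vehicle 24 h and day 0 stood apart.

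Rbl1 had the largest log2 differences of the 3 retinoblastoma genes in differentiation and after 72 h of dexamethasone. It had 6.80, 3.66, 3.75 and 4.96 TPM in day 7 myotubes, against 26.9, 19.4, 25.4 and 21.8 TPM in day 0 myoblasts. Every myoblast library was at more than 2 times the highest day 7 library (log2 difference −1.63, SE 0.15, adjusted p = 7.36e-09). After 24 h it had 1.99, 1.62, 2.32 and 1.49 TPM with dexamethasone, against 2.82, 2.07, 2.58 and 1.69 TPM in vehicle. These groups overlapped (log2 difference −0.25, adjusted p = 0.25). At 72 h it had 7.64, 12.1, 5.42 and 9.28 TPM with dexamethasone, against 3.06, 3.46, 2.98 and 2.99 TPM in vehicle. All treated libraries lay above all vehicle libraries, a 2.76-fold rise, or 2.84-fold without both replicate 1 libraries (log2 difference 0.98, SE 0.15, adjusted p = 5.25e-05). The response at 72 h exceeded that at 24 h (log2 difference 1.22, SE 0.22, adjusted p = 0.00106). All 18 alternatives kept the 72 h call and all 26 the difference between times.

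The Rbl1 level after 72 h of dexamethasone remained below that of dividing cells. With 8.61 ± 2.82 TPM after 72 h of dexamethasone and 23.4 ± 3.39 TPM in day 0 myoblasts, the ranges did not overlap (log2 difference −1.11, SE 0.15, adjusted p = 1.82e-06). In that comparison 6 of 8 members were called, 2 higher and 4 lower, against 63.1% of all genes, 30.1% higher and 33.0% lower. Cdkn1a (12.7-fold) and Rb1 (2.52-fold) were higher, and Cdkn2c (1.99-fold), Cdkn2d (1.83-fold), Rbl1 (2.72-fold) and Cdkn1b (1.19-fold) were lower. The Cdkn1b call was lost when any library other than dexamethasone 72 h replicate 1 or day 0 replicate 3 was left out (adjusted p = 0.0544 to 0.152), and by TPM, with no filter and after quantile normalisation (adjusted p = 0.0168 to 0.152 over all 18 alternatives). Cdkn1c was not called (adjusted p = 0.177, and 0.041 to 0.319 over all 18 alternatives), except when every replicate 1 library was left out. All 6 calls were kept without both 72 h replicate 1 libraries.

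Rbl1 was not called between vehicle 24 h and day 7 myotubes, with 2.29 ± 0.505 TPM in vehicle 24 h and 4.79 ± 1.47 TPM in day 7 myotubes. The ranges did not overlap (log2 difference −0.67, SE 0.15, adjusted p = 0.0597), and without vehicle 24 h replicate 1 or 3 the adjusted p was 0.0357 to 0.0403 (0.0357 to 0.219 over all 17 alternatives). In limma, 0 of 8 members were called in that comparison, with 1 at an unadjusted p below 0.05, against 0.209% of all genes called, 0.0984% higher and 0.111% lower. On TPM 0 of 8 were called as well. Of the neighbouring Rbl1 group means, day 0 and dexamethasone 72 h, day 7 and vehicle 72 h, and vehicle 72 h and vehicle 24 h stood apart. The gap between the vehicle groups was narrow, from at most 2.82 TPM at 24 h to at least 2.98 TPM at 72 h. limma did not call that difference (log2 difference 0.21, SE 0.15, adjusted p = 0.42), and 0 of 18 alternatives did.

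Markers of dividing cells moved in the same directions as Rbl1 in differentiation and after 72 h of dexamethasone. All 3 such markers, Mki67, Top2a and Ccnb1, rose after 72 h of dexamethasone, when their summed level ranged from 29.9 to 123 TPM with dexamethasone and from 1.17 to 13.4 TPM in vehicle. At 24 h limma called 0 of the 3, with 0 at an unadjusted p below 0.05 and 0 called by TPM, and the sum was 2.78 to 6.72 TPM with dexamethasone and 3.68 to 19.0 TPM in vehicle. In differentiation the sum was 20.7 to 73.5 TPM in day 7 myotubes and 334 to 391 TPM in day 0 myoblasts. None of the 3 was at 0 in any group. Of 6 fibroblast markers 5 were tested, and Thy1 reached at most 0.321 TPM in any library. In differentiation 3 rose and none fell, with a summed level of 229 to 606 TPM in day 7 myotubes and 25.2 to 46.8 TPM in day 0 myoblasts. After 24 h of dexamethasone 1 rose and 1 fell, and after 72 h 4 fell. The summed level at 72 h was 56.2 to 163 TPM with dexamethasone and 335 to 632 TPM in vehicle. Of 6 reserve or satellite cell markers, 2 rose and 3 fell in differentiation. With dexamethasone 2 of them rose and 1 fell after 24 h, and 2 rose and 2 fell after 72 h. Myf5 among them averaged 57.1 TPM after 24 h of dexamethasone, against 8.2 TPM in vehicle. At 72 h Myf5 averaged 64.8 TPM with dexamethasone, against 10.8 TPM in vehicle. Of 5 myotube markers 1 rose and 1 fell after 72 h. By TPM 1 of these 5 myotube markers was called at 72 h. Of 5 adipocyte markers 2 were tested, and Fabp4, a fatty acid binding protein, rose at both times while Lpl was not called. Fabp4 averaged 38.0 TPM after 24 h of dexamethasone, against 0.145 TPM in vehicle. After 72 h it averaged 75.2 TPM, against 2.15 TPM in vehicle, where libraries ranged from 0.143 to 8.14 TPM. The summed adipocyte level ranged from 42.2 to 112 TPM after 24 h of dexamethasone, against 6.55 to 17.8 TPM in vehicle, and from 79.6 to 99.4 TPM after 72 h, against 9.36 to 33.3 TPM in vehicle. Adipoq, Plin1 and Cidec were near 0 in every group. Over all genes 60.3% were called in differentiation, 25.4% at 24 h of dexamethasone and 30.3% at 72 h. The part of these cell types in the results on the members was not tested.

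The promoters of the members were searched on both strands for the E2F site letters TTTCGCGC, TTTGGCGC and TTTGGCGG, the CHR element TTTGAA or TTCGAA, the glucocorticoid receptor core AGAACA or TGTTCT, the muscle E-box CAGCTG and the Sp1 box GGGCGG. The windows come from RefSeq on GRCm38.p6, run from 250 bases before to 50 after a start, and were found for 8 of the 10 members, as 11 windows. None was used here for Rb1 or Cdkn1c. Of the 8 members with a window, the E2F letters searched stood in that of Rbl1 alone, and they stood in 1.36% of 32544 promoters. Variants of these letters were not searched, such as TTTCCCGC in a Cdkn2a window and TTTCGCGG in a Cdkn2c window. In Rbl1 the E2F letters begin at position −18 from the start, and an E-box, found in 16.4% of promoters, begins at −183. A match is a run of letters and not a measured binding site.
The windows of Rbl1, Cdkn1a and Cdkn2c are shown because these members carried the main changes, Rbl1 after 72 h of dexamethasone, Cdkn1a in differentiation and Cdkn2c as the member that fell with dexamethasone. Capitals mark the E2F site and the E-box in Rbl1, the E-box in the upstream start of Cdkn1a and AGAACA in the upstream start of Cdkn2c, with Sp1 boxes left in lower case, read 5′ to 3′ on the gene's strand.
Rbl1, chr2:157204485-157204784, minus strand: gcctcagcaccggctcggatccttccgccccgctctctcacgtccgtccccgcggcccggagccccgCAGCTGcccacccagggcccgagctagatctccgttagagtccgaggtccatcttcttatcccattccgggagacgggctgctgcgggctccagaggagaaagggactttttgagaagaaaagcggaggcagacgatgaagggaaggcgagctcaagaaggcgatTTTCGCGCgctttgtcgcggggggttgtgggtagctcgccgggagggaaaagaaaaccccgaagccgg
Cdkn1a, chr17:29090729-29091028, plus strand: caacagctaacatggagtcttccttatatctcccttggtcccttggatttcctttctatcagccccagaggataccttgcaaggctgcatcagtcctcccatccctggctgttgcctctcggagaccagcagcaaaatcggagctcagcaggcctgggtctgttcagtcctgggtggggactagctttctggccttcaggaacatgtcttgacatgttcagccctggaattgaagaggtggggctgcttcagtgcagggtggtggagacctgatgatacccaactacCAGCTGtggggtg
Cdkn2c, chr4:109666707-109667006, minus strand: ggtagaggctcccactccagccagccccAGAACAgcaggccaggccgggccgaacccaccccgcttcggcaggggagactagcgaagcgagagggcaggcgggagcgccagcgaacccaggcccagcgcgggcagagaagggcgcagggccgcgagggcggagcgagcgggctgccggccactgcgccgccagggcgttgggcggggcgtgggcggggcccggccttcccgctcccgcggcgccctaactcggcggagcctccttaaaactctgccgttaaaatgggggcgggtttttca
The E-box in the Cdkn1a window shown begins at position 38 after its start. The second Cdkn1a window, at chr17:29093519-29093818, held none of these letters except 2 Sp1 boxes, which stood in 35.9% of promoters. The second Cdkn2c window, at chr4:109665323-109665622, held none of the letters searched. The receptor core in Cdkn2c, at position −222 from its start, stood in 18.9% of promoters, and the CHR letters found in Rbl2 and Cdkn2b in 19.1%.

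Rbl2 rose in differentiation and after 24 h of dexamethasone. It had 22.0, 26.4, 34.5 and 30.3 TPM in day 7 myotubes, against 21.3, 20.4, 26.3 and 25.2 TPM in day 0 myoblasts. The ranges overlapped, and the 1.21-fold rise (log2 difference 0.23, SE 0.084, adjusted p = 0.0198) was lost by TPM and without day 7 replicate 3 or 4 or day 0 replicate 1 (adjusted p = 0.0565 to 0.0801, and 0.00168 to 0.159 over all 17 alternatives). After 24 h of dexamethasone it had 34.4, 40.6, 39.9 and 50.3 TPM, against 21.0, 32.6, 24.9 and 30.9 TPM in vehicle. All treated libraries lay above all vehicle libraries (log2 difference 0.34, SE 0.084, adjusted p = 0.00477), and all 17 alternatives kept this 1.51-fold rise.

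At 72 h Rbl2 had 25.8, 29.5, 31.4 and 25.1 TPM with dexamethasone, against 27.5, 40.3, 36.8 and 33.8 TPM in vehicle. Vehicle replicates 2 to 4 lay above every treated library, whereas vehicle replicate 1 lay within the treated range. The log2 difference was −0.19 (SE 0.084, adjusted p = 0.092), and without vehicle replicate 1 the adjusted p was 0.0374, past the threshold. It was called lower as well without every replicate 1 library and in the fit with replicate blocks (adjusted p = 0.0095 to 0.228 over all 18 alternatives). The 2 responses differed, with the one at 72 h lower (log2 difference −0.53, SE 0.12, adjusted p = 0.00521), and all 26 alternatives kept that difference. In the order of its 6 group means, led by dexamethasone 24 h with day 0 last, each overlapped the next.

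The balance between Rbl2 and Rbl1 differed between the groups. The ratio of Rbl2 to Rbl1 TPM was 6.44 ± 2.49 in day 7 myotubes and 1.01 ± 0.153 in day 0 myoblasts, and the ranges did not overlap. After 24 h it was 23.3 ± 7.87 with dexamethasone, against 12.8 ± 5.07 in vehicle, with overlapping ranges. After 72 h it was 3.58 ± 1.53 with dexamethasone, against 11.1 ± 1.45 in vehicle, and the ranges did not overlap. Rbl1 made up 9.34 ± 2.59% of the summed TPM of the 3 genes after 72 h of dexamethasone, against 4.02 ± 0.442% in vehicle. Rb1 made up 53.4 ± 2.19% in day 7 myotubes, against 31.8 ± 3.51% in day 0 myoblasts, where the 3 genes had nearly equal shares. The sum itself was 71.1 ± 9.62 TPM in day 7 myotubes and 68.8 ± 9.75 TPM in day 0 myoblasts. After 24 h it was 87.8 ± 12.4 TPM with dexamethasone, against 61.4 ± 7.15 TPM in vehicle, and the ranges did not overlap. After 72 h it was 92.3 ± 13.0 TPM with dexamethasone, against 78.2 ± 7.96 TPM in vehicle, with overlapping ranges.

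**Figure D3:**
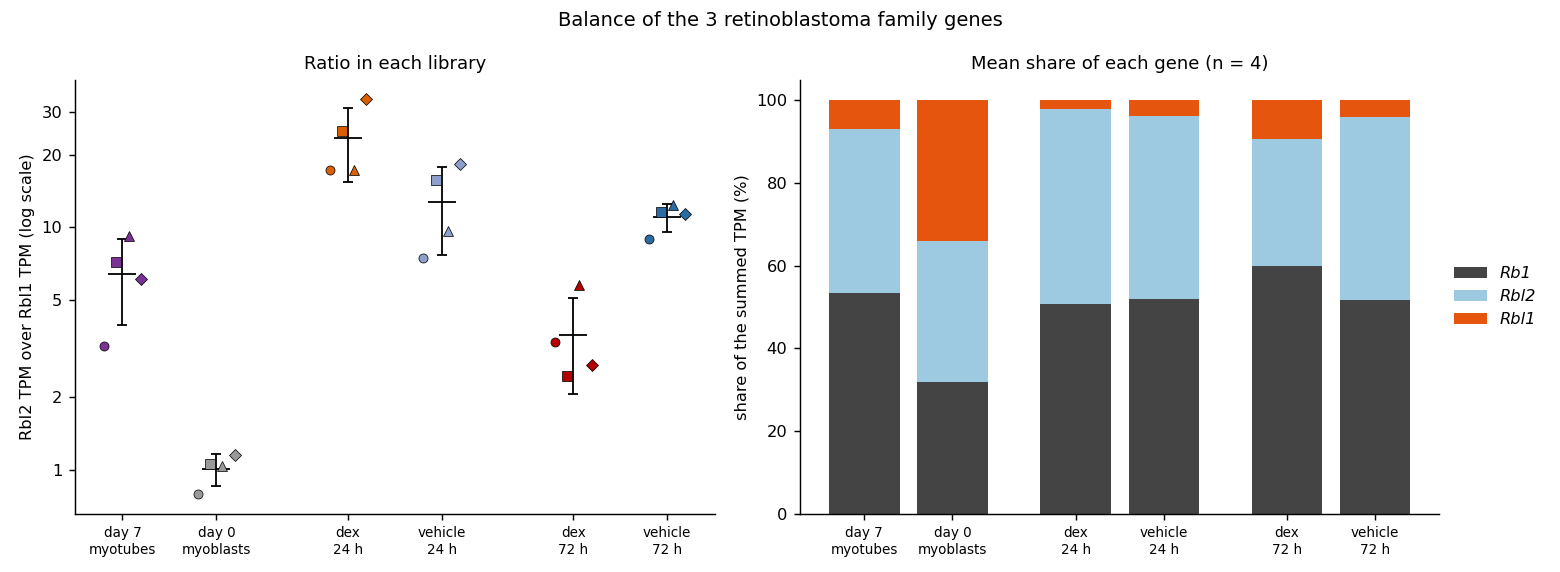
Left, Rbl2 TPM over Rbl1 TPM in each library (log axis, 1 point per library, shape by replicate number from 1, circle, to 4, diamond, bars for mean ± SD, n = 4). Right, mean share of Rb1, Rbl2 and Rbl1 in their summed TPM (%). The mean ratio is 3.58 after 72 h of dexamethasone and 11.1 in its vehicle, and 1.01 in myoblasts. Dex stands for dexamethasone.

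A list of 10 genes held the kinases that the inhibitors act on, their cyclins and Cdc25a, a phosphatase that activates these kinases. In differentiation 9 of the 10 fell and 1 rose, beside 60.3% of all genes called. Cdc25a averaged 6.32 ± 0.333 TPM in day 7 myotubes and 14.7 ± 2.14 TPM in day 0 myoblasts (adjusted p = 2.51e-10). Cdk6 averaged 4.80 ± 1.07 and Cdk4 383 ± 41.5 TPM in day 7 myotubes, against 18.9 ± 5.96 TPM for Cdk6 and 723 ± 63.4 TPM for Cdk4 in day 0 myoblasts. The exception was Ccnd3, a D cyclin known to be kept in muscle, with 239.8 ± 45.7 TPM in day 7 myotubes and 140.2 ± 27.4 TPM in day 0 myoblasts (adjusted p = 1.28e-05). At 24 h of dexamethasone, 1 of 10 fell, Cdk4, with 257 ± 18.7 TPM with dexamethasone and 322 ± 53.1 TPM in vehicle (adjusted p = 0.0407), beside 25.4% of all genes called, and limma called 0 of 10 without every replicate 1 library. With all libraries 3 had an unadjusted p below 0.05, and TPM called 1. After 72 h, 6 of 10 rose and none fell, beside 30.3% of all genes called, and 7 were called without every replicate 1 library. Ccnd1, a D cyclin, averaged 91.0 ± 19.3 TPM with dexamethasone and 8.85 ± 6.06 TPM in vehicle (adjusted p = 9.59e-06), and Ccne2 rose 5.16-fold and Ccne1 3.79-fold. Cdk4 stood at 256 ± 41.6 TPM with dexamethasone and 260.1 ± 41.7 TPM in vehicle (adjusted p = 0.995).

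Among 10 E2F and DP factors, which the retinoblastoma proteins bind, 2 rose and 7 fell in differentiation, 2 rose and 2 fell after 24 h of dexamethasone, and 7 rose and 1 fell after 72 h, with 9 called at 72 h without every replicate 1 library. Over all genes 60.3% were called in differentiation, 25.4% at 24 h and 30.3% at 72 h. At 24 h the DP subunit Tfdp2 averaged 38.0 ± 8.74 TPM with dexamethasone and 11.3 ± 2.12 TPM in vehicle (adjusted p = 1.11e-08), and E2f2 7.54 ± 1.97 TPM with dexamethasone and 17.2 ± 2.77 TPM in vehicle (adjusted p = 1.89e-04). At 72 h the repressor E2f8 averaged 11.8 ± 3.92 TPM with dexamethasone and 4.22 ± 0.766 TPM in vehicle (adjusted p = 7.53e-06), and E2f7 averaged 3.57 ± 1.40 TPM with dexamethasone and 0.421 ± 0.269 TPM in vehicle (adjusted p = 8.13e-05). Of 7 MuvB genes and partners, 2 rose and 4 fell in differentiation, 2 rose at 24 h, a share near that of all genes, and 4 rose at 72 h, with or without the replicate 1 libraries. Mybl2, which joins MuvB in cycling cells, averaged 5.34 ± 2.14 TPM after 72 h of dexamethasone and 0.494 ± 0.420 TPM in vehicle (adjusted p = 6.70e-06).

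Like Rbl1, the 18 replication genes known as E2F targets were lower in differentiation and higher after 72 h of dexamethasone. All 18 fell in differentiation, with a median log2 difference of −1.99 beside 0.015 over all genes. In that comparison the licensing factor Cdt1 averaged 4.04 ± 1.97 TPM in day 7 myotubes and 30.5 ± 6.02 TPM in day 0 myoblasts (adjusted p = 3.79e-11). After 24 h of dexamethasone Rrm2 and Mcm7 rose and Tyms fell, with Mcm7 named after its value was seen. Over all genes 60.3% were called in differentiation, 25.4% at 24 h and 30.3% at 72 h. After 72 h all 18 rose, with a median of 1.17 beside 0.0056 over all genes, and 18 of 18 were called without every replicate 1 library. Rrm2, a subunit of ribonucleotide reductase, averaged 270.3 ± 69.6 TPM with dexamethasone and 86.6 ± 13.0 TPM in vehicle (adjusted p = 7.05e-07), and the replication factor Mcm10 averaged 3.55 ± 1.41 TPM with dexamethasone and 0.398 ± 0.114 TPM in vehicle (adjusted p = 1.25e-06). The response differed between 72 h and 24 h for 16 of the 18, all higher at 72 h, beside 11.3% of all genes. The Rbl1 difference of 0.98 lay inside their range at 72 h.

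**Figure D4:**
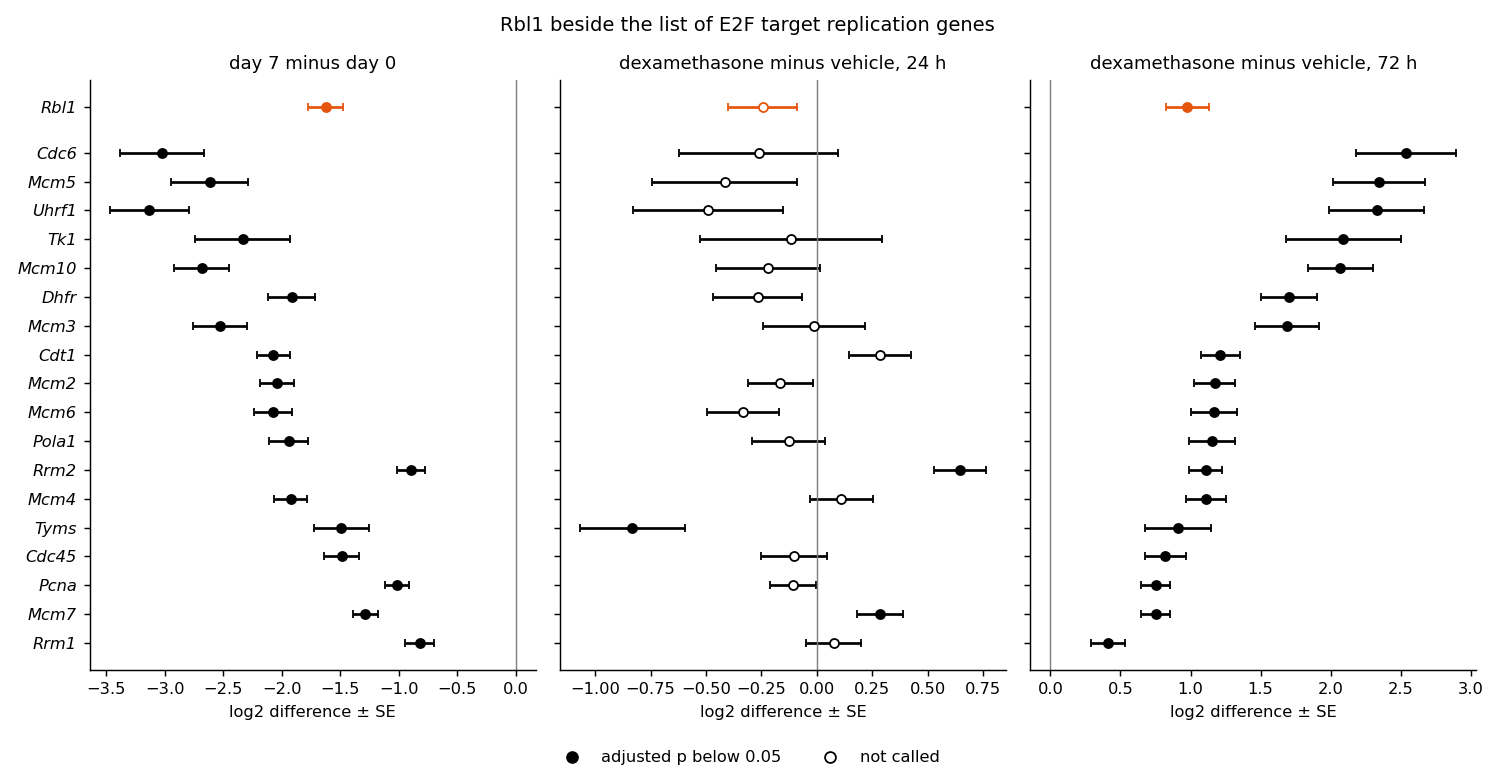
Log2 difference ± SE in the deposited log2 table (x axis, own scale in each panel) for Rbl1 (orange, top) and the 18 replication genes, ordered by their difference at 72 h. Filled points have an adjusted p below 0.05. All 19 genes are below 0 in differentiation and above 0 after 72 h of dexamethasone, and at 24 h they lie on both sides of 0.

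Genes that act on the level of the inhibitors were measured as well. Of 11 tested ubiquitin ligase subunits that act on CDK inhibitors, 7 rose and 4 fell in differentiation, beside 60.3% of all genes called. With 24 h of dexamethasone limma called 0 of 11, beside 25.4% of all genes, and 4 rose at 72 h. At 24 h 3 of them had an unadjusted p below 0.05, and 1 was called by TPM. The 4 of 11 at 72 h is a share near the 30.3% of all genes called. Skp2, which targets p27, averaged 4.92 ± 1.58 TPM in day 7 myotubes and 25.4 ± 2.00 TPM in day 0 myoblasts (adjusted p = 7.66e-10). Dtl, a substrate receptor for p21, averaged 6.20 ± 1.93 TPM after 72 h of dexamethasone and 1.13 ± 0.423 TPM in vehicle (adjusted p = 5.18e-06). Of p53 and 17 other genes of its pathway, Cdkn1a not among them, 9 rose and 2 fell in differentiation, a share near the 60.3% of all genes called. At 24 h 7 rose and 1 fell, beside 25.4% of all genes called. At 72 h 8 rose and 1 fell, beside 30.3%, where TPM called 5 and leaving out every replicate 1 library 9. Trp53inp1, a p53 target that promotes cell cycle arrest, averaged 147 ± 57.2 TPM after 24 h of dexamethasone and 21.2 ± 3.97 TPM in vehicle (adjusted p = 1.30e-09), and Sesn1 rose 3.04-fold. In differentiation the receptor gene Eda2r rose 8.18-fold.

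A list of 15 genes held Polycomb subunits and Myc, factors known to repress CDK inhibitor genes, and Zbtb17. Of the 15, 2 rose and 8 fell in differentiation, 6 rose at 24 h, and 2 rose and 2 fell at 72 h. The list's share in differentiation is near the 60.3% of all genes called, and 25.4% and 30.3% of all genes were called at 24 h and 72 h. Without every replicate 1 library 2 of the list were called at 24 h, and by TPM 1 was called at 72 h. Suz12 averaged 19.1 ± 1.78 TPM in day 7 myotubes and 48.7 ± 6.96 TPM in day 0 myoblasts (adjusted p = 1.23e-10). Myc averaged 41.8 ± 4.97 TPM after 72 h of dexamethasone and 20.4 ± 4.03 TPM in vehicle (adjusted p = 6.23e-06). Of 11 FoxO and Smad pathway genes, 4 rose and 4 fell in differentiation, beside 60.3% of all genes called. At 24 h 3 rose and 2 fell, beside 25.4%, and at 72 h 2 rose and 6 fell, beside 30.3%. Tgfb1 averaged 36.4 ± 2.48 TPM after 72 h of dexamethasone and 77.3 ± 8.50 TPM in vehicle (adjusted p = 9.21e-07).

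Across the 24 libraries, the deposited log2 values of the members were set beside those of 12737 genes. These points share the 6 groups, and Pearson r is given as a description. Cdkn1a was most like Synpo2l (r = 0.996) and Myog (r = 0.991), both muscle genes. Rbl1 was most like Bard1 (r = 0.991) and Mcm10 (r = 0.989), and Cdkn2d most like Selenoh (r = 0.951) and Cenpw (r = 0.942). Rb1 had r = 0.960 with Kctd9, and Rbl2 was most like Vldlr (r = 0.901) and Gm11851 (r = 0.899). For Cdkn2c they were Atpif1 (r = 0.943) and Trappc4 (r = 0.925), for Cdkn1b Sh3bp5 (r = 0.900) and Emb (r = 0.875), and for Cdkn1c Usb1 (r = 0.854) and Skap2 (r = 0.850). Between members, Rbl1 and Rbl2 had r = −0.786, Cdkn1a and Rb1 r = 0.808, and Rbl1 and Cdkn2d r = 0.830.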

How the data were processed

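RNA from 24 C2C12 libraries (TruSeq stranded mRNA kit, per the labels' protocols) was available as 2 tables of 48544 genes, 1 column per library. The TPM values were made by the authors and sum to 1000000 in each library. The log2 values were deposited by the authors on a normalised scale from −2.33 to 20.06, and how they were made is not given in the sources used here. Per the submitters' processing notes, Salmon, kallisto 0.51.1, DESeq and build GRCm39 were used, with no role stated. Read depth is unknown, so no counting error is given.

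Genes whose deposited log2 value corresponded to at least 10 in at least 4 libraries were tested (16257). limma 3.58.1 in R 4.3.3 (trend, 1 mean per group, all 24 libraries) gave 7 comparisons, with two-sided p-values adjusted by Benjamini-Hochberg over all genes tested. It was first tested on simulated data. The change of the dexamethasone response is the 72 h difference minus the 24 h difference.

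The members and lists were chosen with earlier results of these data known. Named genes are the 10 members, the 2 genes of smallest adjusted p per list and comparison, Ccnd1, Ccnd3, Ccne1, Cdk4 and Cdk6, and the 2 genes most like each member by Pearson r among genes of at least 1 TPM on average. Mki67, Myog and Fkbp5 served as checks of the labels. A gene that this rule names is not reported here. Cell type markers, Ckm among them, the neighbours of Cdkn2a and Cdkn2b, and Mcm7 were named outside that rule. Skp1 was not matched in the tables. Alternatives were TPM with a pseudocount of 0.1 or 1 (genes of at least 0.5 TPM in 4 libraries), no filter or a minimum of 50, quantile normalisation, the replicate number as a block, the compared groups alone, and left-out libraries. TPM with a block and leaving out every replicate 1 library were chosen after seeing the data.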

Additional observations from a re-analysis of the deposited data

Results flagged for a closer look

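Rb1 in dexamethasone 72 h replicate 1 stood at 40.23 TPM, below the other 3 libraries of its group by 0.860 of the group's whole range. Rbl1 in vehicle 72 h replicate 2 stood at 3.464 TPM, above the other 3 by 0.830 of the range. These were 2 of 48 groups of 4 examined by the gap of the outermost library, and chance alone gives such a gap in about 1 in 20 groups.

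For 4 members the response to dexamethasone differed between 72 h and 24 h by the test of the difference itself. The difference of the log2 responses, 72 h minus 24 h, was 1.221 for Rbl1, −0.4336 for Cdkn1b, −0.5341 for Rbl2 and −0.8701 for Cdkn1c.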

How the results depend on the processing

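Over the alternatives, 952 of 1048 member differences kept direction and side of the threshold, 60 lost a call, 10 gained one and 26 changed sign, none of them called. The sign changed for Cdkn2c in differentiation (−0.037 and −0.036 by TPM with a pseudocount of 0.1 and 1, −0.037 by TPM with the replicate block), for Rb1 in the change of response (−0.034, −0.031 and −0.034 by the same settings) and for Cdkn1a in the change of response (−0.052 by each of these and by quantile normalisation). With 1 library left out, Cdkn2c ranged from −0.024 to 0.0997 in differentiation, Cdkn1a from −0.048 to 0.129 and Cdkn2d from −0.053 to 0.065 at 24 h of dexamethasone, and Cdkn1a from −0.047 to 0.176 in the change of response. Between vehicle 24 h and day 7, Cdkn1a ranged from −0.074 to 0.019 and Rbl2 from −0.091 to 0.045. TPM moved the median of all genes to −0.12 in the change of response and to 0.13 between vehicle 72 h and vehicle 24 h.

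Without a filter 3 members were called at 24 h of dexamethasone in place of 5. Between vehicle 24 h and day 7, the replicate block called 1 member in place of 0. Between vehicle 72 h and vehicle 24 h, the compared groups alone and leaving out every replicate 1 library called 0 in place of 1. Over all genes, vehicle 24 h against day 7 had 34 calls, against 4 and 5 by TPM with a pseudocount of 0.1 and 1, 4 with no filter, 109 with the block, 9 by TPM with the block, and 0 with the compared groups alone or every replicate 1 library left out. Vehicle 72 h against vehicle 24 h had 709 calls, against 270.0 and 264 by TPM, 94 with no filter, 1067 with the block, 378 by TPM with the block, 4 with the compared groups alone, 380.0 without both 72 h replicate 1 libraries and 5 without every replicate 1 library.

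With 1 library left out, the members called numbered 5 to 7 in differentiation, 3 to 5 at 24 h, 2 to 3 at 72 h, 3 to 4 in the change of response, 0 to 1 between vehicle 24 h and day 7, 0 to 1 between vehicle 72 h and vehicle 24 h and 5 to 6 between dexamethasone 72 h and day 0. All genes called numbered 2706 to 4358 at 24 h, 3892 to 5472 at 72 h, 1241 to 2686 in the change of response, 0 to 328 between vehicle 24 h and day 7 and 2 to 1751 between vehicle 72 h and vehicle 24 h. The cause of these shifts was not tested.

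Same-numbered libraries were taken to pair only if every pair's deviations from group means correlated above 0.1, and 31 of 60 pairs did. The median r was 0.123 for the same number and −0.060 for different numbers, 0.324 for replicate 1 and 0.058 to 0.095 for the others, and 16 of 24 libraries correlated best with one of their own number. Beside the shifts above, the block called Rbl2 lower at 72 h (adjusted p = 0.0162) and higher in dexamethasone 72 h than in day 0 myoblasts (adjusted p = 0.0149), and with TPM it called Cdkn1c lower at 72 h (adjusted p = 0.0498). With depth unknown, the counting error behind the low levels of Cdkn1c and Rbl1 in myotubes cannot be given.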
